A study of Mus musculus with 7 samples.

Results

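The genes described here were 48 markers of leukocyte subsets, taken from a fixed list of named genes, among 52230 genes that carried a transcript in the sequenced libraries. They comprised the pan-leukocyte gene *Ptprc*, 22 genes of macrophages and monocytes, 4 of neutrophils, 4 of T cells, 2 of B cells, 2 of NK cells, 3 of mast cells, 4 of eosinophils and 6 of antigen-presenting cells. The question was whether the ovarian stroma of mice that lack the progesterone receptor differed from wildtype stroma in the RNA of any of these subsets shortly before ovulation. All 7 libraries came from females of the PRKO line (Pgrtm1Bwo), 21 to 27 days old per the sample labels (21 to 25 days in the series text), that had received 5 IU of eCG (PMSG) and, 44 h later, 5 IU of hCG, with ovaries taken 8 h after hCG. The 4 WT libraries (PGR +/+) were numbered 1 to 4 and the 3 KO libraries (PGR -/-) 2 to 4. Each library was made from the residual tissue of mice pooled in groups of 3, after the ovaries had been punctured to release granulosa cells, and the control and KO tissue therefore shared the same hormone treatment and the same depletion step. Because the deletion is carried by every cell of the animal, effects arising in the ovary and in the blood or bone marrow cannot be told apart in this design.

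Leukocytes populate the ovary throughout the cycle, and macrophages, neutrophils, mast cells and lymphocytes are known to enter or become active in the theca and stroma after the ovulatory LH surge, which hCG mimics. Tissue macrophages clear dying cells through TAM receptor kinases and the complement protein C1q, granulocytes and mast cells carry proteases and ribonucleases in their granules, and antigen-presenting cells display peptides to T cells on MHC class II molecules. In whole tissue RNA, fewer cells of a type and less RNA per cell cannot be told apart, and a gene used as a marker can also be transcribed by cells outside the lineage.

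The libraries held 47.4 M to 63.4 M reads assigned to transcripts. After the removal of genes with low counts 19233 genes were tested, of which 42 were members. *Pgr*, the targeted gene, was at 22.2 ± 6.16 CPM (counts scaled to library size; mean ± SD, n = 4) in WT and 6.74 ± 0.736 CPM (n = 3) in KO, with no overlap between the groups (log2 fold change −1.72 ± 0.20 SE, adjusted p = 0.0544 in edgeR and 1.25e-14 in DESeq2). Genes listed as markers of theca (*Cyp17a1*, *Cyp11a1*), fibroblasts (*Col1a1*) and endothelium (*Pecam1*) were abundant in all 7 libraries. Granulosa cell genes had not been lost, as *Inha* still ranged from 1436 to 2203 CPM. The leukocyte genes were therefore measured as a small part of a mixed tissue.

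Among the members, transcript levels per length (TPM, abundance scaled by transcript length and library) ran in WT from 174 TPM for *Axl* down to 0.0176 TPM for *Ly6g*, and genes of the macrophage lineage stood at the top. *Axl*, a TAM receptor tyrosine kinase that stromal and endothelial cells also express, had the highest level, at 174 ± 15.1 TPM in WT and 184 ± 28.2 TPM in KO. *Lyz2*, the lysozyme of macrophages and granulocytes, followed at 86.7 ± 8.25 and 85.1 ± 15.2 TPM. The 3 chains of complement C1q lay next, with WT means of 52.6 TPM for *C1qa*, 45.1 TPM for *C1qb* and 37.4 TPM for *C1qc*, whose ranges overlapped their neighbours in this order. *Cd74*, the invariant chain that escorts MHC class II molecules, had a level of 31.1 ± 11.2 TPM in WT, and the class II chain genes *H2-Ab1* and *H2-Aa* had 20.2 and 19.3 TPM. *Ptprc*, which encodes the CD45 phosphatase found on leukocytes of all kinds, reached only 1.65 ± 0.172 TPM in WT and 1.76 ± 0.601 TPM in KO. Lymphocyte genes were lower still: the WT means were 0.473 TPM for *Cd3e*, 0.527 TPM for *Cd4*, 0.0889 TPM for *Cd8a*, 0.689 TPM for *Cd79a* and 0.253 TPM for *Nkg7*. At the foot of the order were *Siglecf*, *Ccr3* and *Ly6g*, all under 0.1 TPM.

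**Figure D1:**
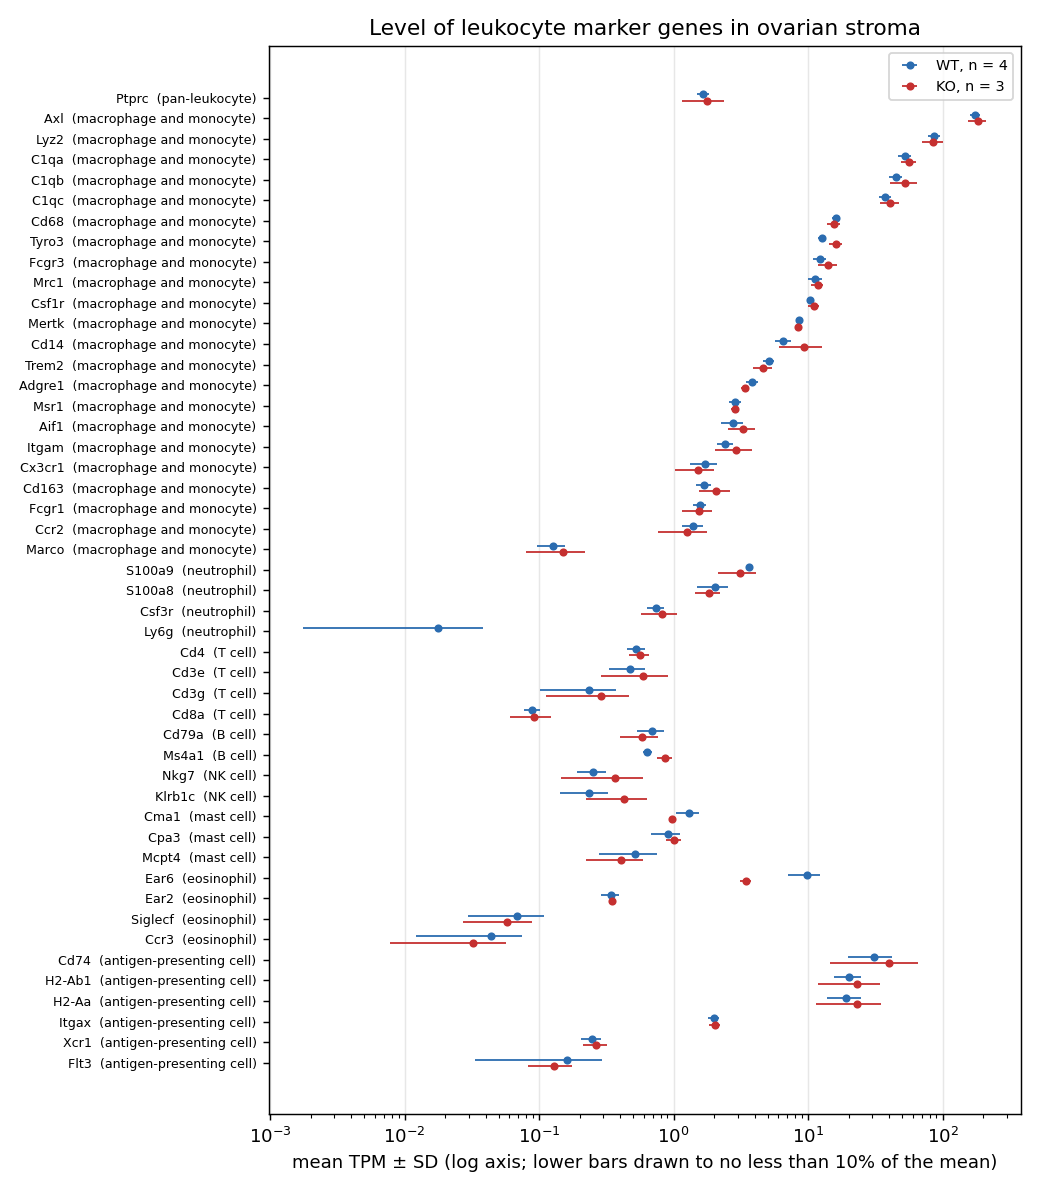
Mean level of each of the 48 members in TPM on a log axis, with bars of ± 1 SD, for 4 WT libraries (blue) and 3 KO libraries (red), ordered within each subset by the WT mean; a mean of 0 is not drawn. Macrophage genes and *Cd74* hold the upper end, from *Axl* at 174 TPM in WT downwards, and *Ear6* is the gene whose WT and KO bars are furthest apart.

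In the comparison of KO with WT, no member passed the thresholds in edgeR (an adjusted p not above 0.05 with a log2 fold change of 0.5 or more in either direction), a rule that 2 of 19233 genes (0.0104%) met. DESeq2, with the same thresholds, called 144 genes (0.749%) and 1 member, *Ear6*. An unadjusted edgeR p under 0.05 was found for 1720 of all genes (8.94%) and for 3 of the 42 members tested, namely *Ear6* with a lower value in KO, and *Tyro3* and *Ms4a1* with higher ones. The CPM values of the groups did not overlap for 1740 genes (9.05%) and for 2 members, *Ear6* and *Cma1*. These shares among the members, which are few, were near the background over all genes. The 6 members that did not pass the filter were *Ly6g*, *Cd8a*, *Nkg7*, *Siglecf*, *Ear2* and *Ccr3*.

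The median log2 fold change of the 42 tested members was 0.04, against −0.00101 over all genes tested, with 25 members higher and 17 lower in KO. That majority did not hold with every library left out in turn. KO library 2 was the highest of the 7 for 22 of the 42 members (52.4%), against 14.9% of all genes, and KO library 4 was the lowest for 13 members (31%), against 14.7%. With KO library 2 left out, 43 members passed the filter, and 9 of them had higher and 34 lower values in KO, while the median became −0.10. With WT library 3 left out, 18 were higher and 23 lower (median −0.01), and with WT library 2 left out, 21 were higher and 20 lower. With KO library 4 left out, 32 of 43 were higher, and with WT library 4 left out, 29 of 42. The spread between KO libraries, as the SD of log2 CPM, exceeded that between WT libraries for 33 of the 42 members (78.6%), but for 46.9% of all genes. Its median was 0.324 in KO and 0.215 in WT for the members, against 0.128 and 0.142 for all genes. The median spread of the leukocyte genes from pool to pool was thus above that of all genes in both genotypes, and wider in KO. Members and all genes were not matched for level. A wider spread in KO was also seen for all 6 red blood cell genes (medians 0.471 in KO, 0.158 in WT). It was seen for all 6 oocyte genes and 7 of 8 smooth muscle and pericyte genes too. It was rarer among fibroblast (0 of 6), theca (1 of 6), surface epithelium (1 of 6), endothelial (2 of 8) and granulosa cell genes (3 of 8). Members share their cells of origin and are not independent of each other, and these counts describe the 7 pools without a test.

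**Figure D2:**
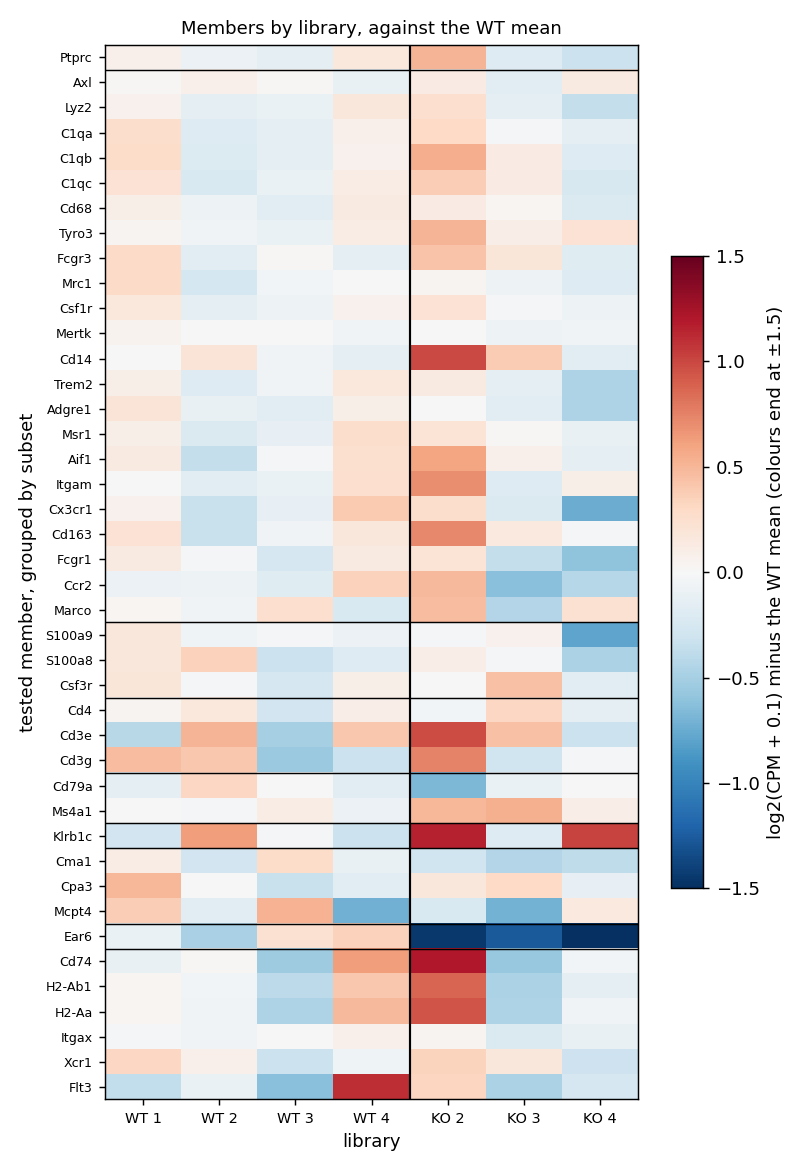
Deviation of each of the 42 tested members from its WT mean, as log2(CPM + 0.1), in WT libraries 1 to 4 and KO libraries 2 to 4, with black lines between subsets and colours that end at ±1.5. The column of KO library 2 is red for most macrophage and class II genes, KO library 4 is mostly pale or blue, and the row of *Ear6* is dark blue in all 3 KO libraries.

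*Ptprc*, the gene that stands for leukocytes in general, gave 5.19, 4.63, 4.49 and 5.50 CPM in WT libraries 1 to 4, and 7.05, 4.29 and 3.93 CPM in KO libraries 2 to 4. KO library 2 lay above every WT library, the other KO libraries lay below every one of them, and the means differed by a log2 fold change of 0.04 ± 0.20 (SE; edgeR adjusted p = 0.971). Without KO library 2 the log2 fold change was −0.27.

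Among the 22 macrophage and monocyte genes, all of which were tested, 13 were higher and 9 lower in KO, with a median log2 fold change of 0.04 and a range of −0.23 to 0.48. The defining genes of the lineage were close to equal between genotypes. *Csf1r*, the receptor for colony-stimulating factor CSF1 on which most tissue macrophages depend, had 29.4, 23.7, 24.9 and 27.5 CPM in WT and 30.7, 25.8 and 24.8 CPM in KO (log2 fold change 0.04 ± 0.10). *Adgre1*, which encodes the mouse macrophage antigen F4/80, had 8.40, 6.78, 6.55 and 7.80 CPM in WT and 7.30, 6.54 and 5.31 CPM in KO (−0.21 ± 0.14). KO library 2 lay just above the WT range for *Csf1r*, KO libraries 3 and 4 lay below it for *Adgre1*, and the other KO values lay within it.

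The lysosomal glycoprotein gene *Cd68* stood at 11.03, 9.78, 9.29 and 11.4 CPM in WT and at 11.3, 10.5 and 8.87 CPM in KO (log2 fold change −0.02 ± 0.11). *C1qa* stood at 36.5, 26.5, 27.3 and 32.1 CPM in WT and at 37.4, 30.0 and 27.7 CPM in KO (0.05 ± 0.13). Groups overlapped for both, and with these standard errors a change of the size of the threshold, 0.5 on the log2 scale, would lie several standard errors from either estimate. Summed over the 22 genes, the level was 482.5 to 518.1 TPM in WT and 482.1 to 593.0 TPM in KO, of which the highest value was again from KO library 2. The ratio of the means was 1.06, and it was also 1.06 with the TAM receptor genes *Axl*, *Tyro3* and *Mertk* left out.

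*Tyro3*, a TAM receptor kinase with roles outside the macrophage lineage too, was the only macrophage gene with an unadjusted p under 0.05 in edgeR, to which DESeq2 added *Cd14*. Its values were 32.9, 31, 30.0 and 34.7 CPM in WT, and 45.9, 34.5 and 37.3 CPM in KO. KO library 3 lay within the WT range while the other 2 KO libraries lay above it, and the log2 fold change was 0.29 ± 0.10 (edgeR adjusted p = 0.421), or 0.16 without KO library 2. The other TAM receptors did not follow it, at a log2 fold change of 0.03 ± 0.09 for *Axl* and −0.05 ± 0.06 for *Mertk*, whose values were the most even of all, from 20.0 to 21.8 CPM in the 7 libraries. *Cd14*, the co-receptor for bacterial lipopolysaccharide, had the largest positive log2 fold change of this subset, 0.48 ± 0.23 (adjusted p = 0.582), with 12.2, 7.98 and 5.47 CPM in KO libraries 2 to 4 against 5.56 to 6.995 CPM in WT. KO libraries 2 and 3 lay above the WT range, and KO library 4 lay below it.

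The remaining macrophage genes had log2 fold changes between −0.23 and 0.30, among them *C1qb* at 0.18 ± 0.17 and *C1qc* at 0.09 ± 0.15, none with an unadjusted p under 0.05 in edgeR. The scavenger receptor genes *Cd163* (0.30 ± 0.21), *Marco* (0.23 ± 0.40), *Msr1* (0.03 ± 0.15) and *Mrc1* (−0.09 ± 0.12), which mark resident or alternatively activated cells, did not move in 1 direction. *Marco* had the widest range of the subset, with 0.154, 0.139, 0.195 and 0.113 CPM in WT and 0.243, 0.0834 and 0.190 CPM in KO, a few reads a library. Further genes were split likewise. Lower in KO were the monocyte and macrophage genes *Ccr2* (−0.13 ± 0.27) and *Cx3cr1* (−0.21 ± 0.26). So were the Fc receptor gene *Fcgr1* (−0.23 ± 0.21), the phagocyte gene *Trem2* (−0.15 ± 0.17) and *Lyz2* (−0.06 ± 0.14). Higher were the Fc receptor gene *Fcgr3* (0.16 ± 0.16), the microglial and phagocyte gene *Aif1* (0.21 ± 0.23) and the integrin gene *Itgam* (0.24 ± 0.20). Of the transcript sequence of *Itgam*, 73.1% of the stretches of 31 bases also occurred in *Gm49368*, to which only 0 to 7 reads a library were assigned, and for *Lyz2* and *Fcgr3* the shared part was 15.3% and 15.4%.

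**Figure D3:**
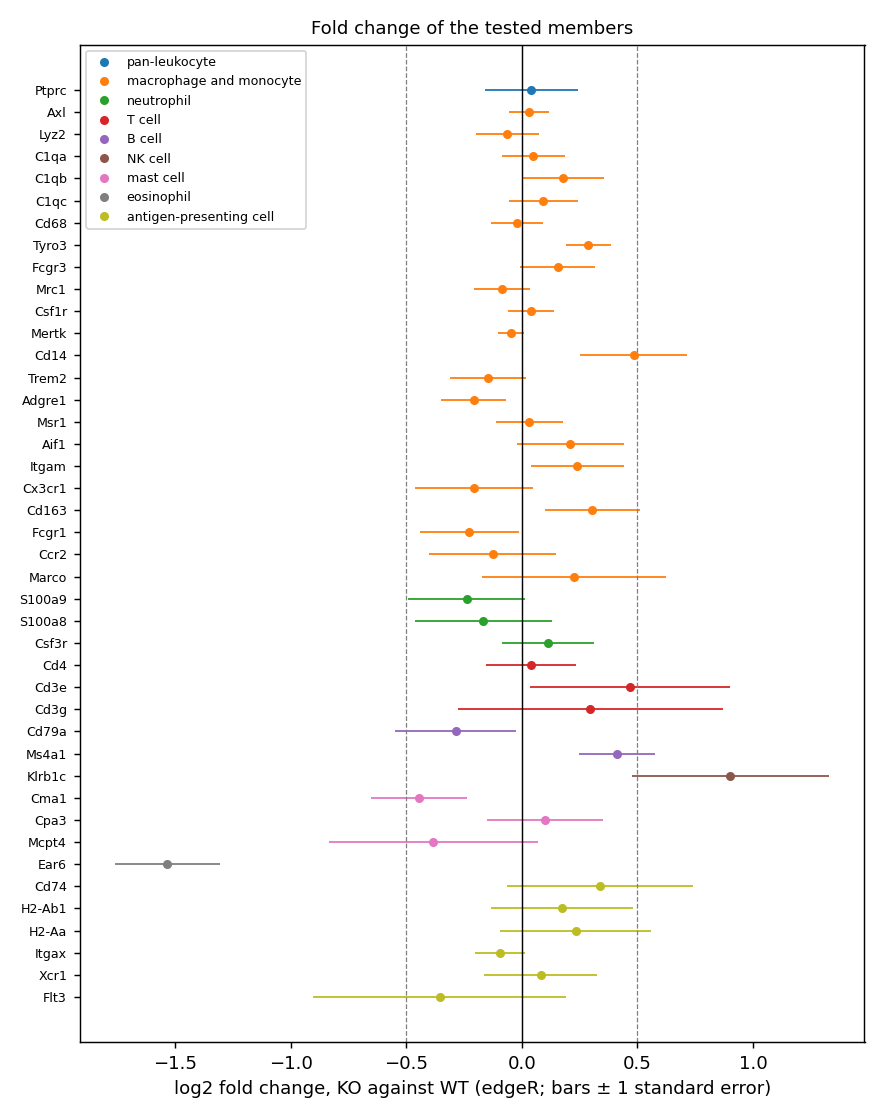
Log2 fold change (KO against WT, edgeR) of the 42 tested members with bars of ± 1 standard error, coloured by subset; dashed lines mark ±0.5. Most macrophage genes sit within 0.3 of 0, the class II genes have wide bars that span 0, as have *Cd3g* and *Flt3*, the bars of *Cd3e*, *Cd79a*, *Ms4a1* and *Klrb1c* end short of it, and *Ear6* at −1.53 stands by itself on the left.

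*Ear6* gave the largest difference of all members. It belongs to the eosinophil-associated ribonucleases, secreted enzymes of the RNase A family, and lies on chromosome 14 (chr14:52091156-52092100, plus strand, GRCm39). Its values were 3.15, 2.38, 3.99 and 4.34 CPM in WT and 1.18, 1.35 and 1.07 CPM in KO. All 3 KO libraries lay under the lowest WT library and were close together. The means were 3.47 ± 0.877 CPM in WT and 1.202 ± 0.144 CPM in KO, and the log2 fold change was −1.53 ± 0.23 (adjusted p = 0.102 in edgeR and 3.22e-07 in DESeq2). A two-sided exact permutation test of the CPM values over all 35 splits gave p = 0.0286, the smallest that 4 and 3 libraries allow. *Ear6* was singled out by these same values, so this p adds no separate support. The groups also did not overlap for 9.05% of all genes. With any 1 library left out the log2 fold change stayed between −1.67 and −1.40, and the edgeR adjusted p was between 0.0594 and 0.448.

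The other eosinophil members did not move with it. *Ear2*, a related ribonuclease gene, had 6 to 8 reads in each library, from 0.0964 to 0.154 CPM in WT and from 0.121 to 0.125 CPM in KO, and 60.1% of its stretches of 31 bases were shared with *Ear1* and *Ear10*. For *Ear6* the shared part was 8.2%. *Siglecf*, the sialic acid-binding lectin used to identify mouse eosinophils, had 0.0384, 0.0596, 0.142 and 0.177 CPM in WT and 0.139, 0.0417 and 0.0862 CPM in KO, and the eotaxin receptor gene *Ccr3* ranged from 0.0161 to 0.192 CPM. The granule protein genes *Epx*, *Prg2* and *Prg3*, which define eosinophils and are not members, were at 0 to 0.0345 CPM in all 7 libraries, below the 0.0482 to 0.0625 CPM that a count of 0 allows at this depth (3 reads a library, for counting error only). *Il5ra*, the receptor chain for interleukin 5, was above that limit at 0.119 to 0.284 CPM (log2 fold change −0.25, edgeR adjusted p = 0.89), as was *Siglecf* in some libraries of both genotypes. The granule protein genes were thus at or near 0 in the tissue in which *Ear6* was measured, while these 2 receptor genes were detected at a few reads. Of the *Siglecf* reads, 28.2% were assigned to transcripts annotated as retaining an intron, with 0% to 100% in single libraries. Of the summed level of the subset, 8.70, 7.32, 12.1 and 12.7 TPM in WT and 3.78, 4.23 and 3.61 TPM in KO, *Ear6* supplied means of 9.75 and 3.43 TPM. No annotated gene overlapped *Ear6*, and its neighbours within 100 kb that could be tested (*Ndrg2*, *Mettl17*, *Ang4* and *Slc39a2*) all had unadjusted p values above 0.05.

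**Figure D4:**
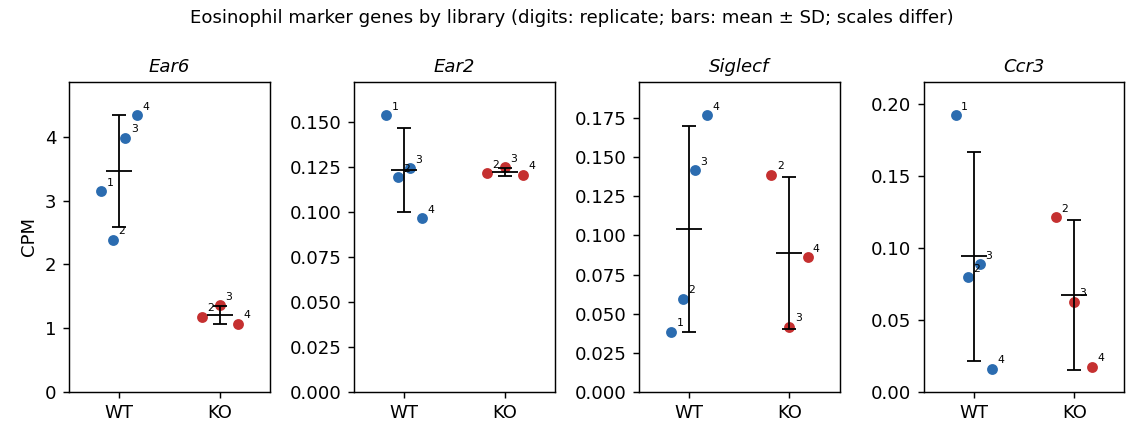
CPM of the 4 eosinophil members in each WT library (blue) and KO library (red), marked by replicate number, with the mean and ± 1 SD in black and a vertical scale of its own for each gene, starting at 0. *Ear6* separates the groups at 2.38 to 4.34 against 1.07 to 1.35 CPM, whereas the scarce *Ear2*, *Siglecf* and *Ccr3* overlap.

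The bases just before the transcription start are shown for *Ear6*, the member with the largest difference, and for *Ear2*, its relative with no such difference at the reads available. Each is 250 bases before the start of the most-read annotated transcript, 5′ to 3′, from chr14:52090975-52091224 for *Ear6* and chr14:44339861-44340110 for *Ear2* (both plus strand, GRCm39). The *Ear2* stretch lies within the annotated gene (chr14:44311771-44340996), as does the end of the *Ear6* stretch, whose gene begins at 52091156. The capitals mark the longest run that the pair has in common, of 57 bases.
Ear6: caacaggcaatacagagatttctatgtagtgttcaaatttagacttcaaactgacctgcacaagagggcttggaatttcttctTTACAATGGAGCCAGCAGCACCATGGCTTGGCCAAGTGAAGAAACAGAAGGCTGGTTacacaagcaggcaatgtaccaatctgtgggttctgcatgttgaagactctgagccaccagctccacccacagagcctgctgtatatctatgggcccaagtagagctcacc
Ear2: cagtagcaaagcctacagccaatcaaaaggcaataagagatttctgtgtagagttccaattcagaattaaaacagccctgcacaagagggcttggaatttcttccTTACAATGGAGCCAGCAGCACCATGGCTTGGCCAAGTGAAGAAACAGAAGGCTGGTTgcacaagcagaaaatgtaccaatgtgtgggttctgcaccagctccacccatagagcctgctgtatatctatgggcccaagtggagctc
Aligned over their whole length, the sequences were identical at 213 of 272 columns (78.3%), gaps included. The letters TGTTCT, the core motif recognised by the progesterone receptor and related steroid receptors, searched on both strands, were in neither sequence, and they occurred in 13.5% of the 19232 stretches of 250 bases before the tested genes. Among all members they were found before *C1qb*, *C1qc*, *Cd163*, *Klrb1c*, *Nkg7* and *Itgax*. GAGGAAGT, a form of the motif of the myeloid factor PU.1, was found before *C1qc*, *Ly6g* and *S100a8*, and before 2.1% of tested genes.

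The class II genes among the antigen-presenting genes varied widely between pools. The class II α and β chain genes *H2-Aa* and *H2-Ab1* and the invariant chain gene *Cd74* are transcribed together under the coactivator CIITA, which acts through a shared upstream module that includes a Y box. The 250 bases before the start of the most-read transcript are shown for both class II chain genes because each held the Y box letters CTGATTGG, in capitals. They lay 51 bases before that start in *H2-Aa* (chr17:34506798-34507047, minus strand, GRCm39) and 30 bases in *H2-Ab1* (chr17:34481933-34482182, plus strand). The *H2-Ab1* stretch lies within the annotated gene (chr17:34476663-34488393).
H2-Aa: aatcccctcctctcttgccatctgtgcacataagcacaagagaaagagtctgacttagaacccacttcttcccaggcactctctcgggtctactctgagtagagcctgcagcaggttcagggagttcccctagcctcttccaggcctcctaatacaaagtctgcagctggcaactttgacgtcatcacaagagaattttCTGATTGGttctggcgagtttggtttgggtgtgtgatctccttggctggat
H2-Ab1: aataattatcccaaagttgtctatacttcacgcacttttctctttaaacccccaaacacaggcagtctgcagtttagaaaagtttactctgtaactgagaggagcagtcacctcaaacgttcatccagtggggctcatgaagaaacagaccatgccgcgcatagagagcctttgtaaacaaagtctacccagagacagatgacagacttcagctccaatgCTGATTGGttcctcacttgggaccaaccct
These 8 letters, searched on both strands, occurred before 4.26% of the tested genes and before no other member.

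*Cd74* had 20.0, 21.9, 14.9 and 33.4 CPM in WT and 49.9, 14.5 and 20.9 CPM in KO. *H2-Aa* had 12.2, 11.6, 8.67 and 16.9 CPM in WT and 23.3, 8.69 and 11.6 CPM in KO. *H2-Ab1* had 13.7, 13.0, 10.2 and 17.8 CPM in WT and 24.6, 9.61 and 12.1 CPM in KO. All 3 genes were highest in KO library 2 and next in WT library 4, and in each genotype the library numbered 3 was the lowest, so that the groups overlapped from end to end. The log2 fold changes of 0.34 ± 0.40, 0.23 ± 0.33 and 0.17 ± 0.31 had adjusted p values of 0.85, 0.879 and 0.91 in edgeR. Without KO library 2 that of *Cd74* became −0.35 and that of *H2-Ab1* −0.34. Summed over the 3 genes, the level was 61.7, 69.8, 50.5 and 100.2 TPM in WT and 140.1, 47.9 and 69.9 TPM in KO.

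**Figure D5:**
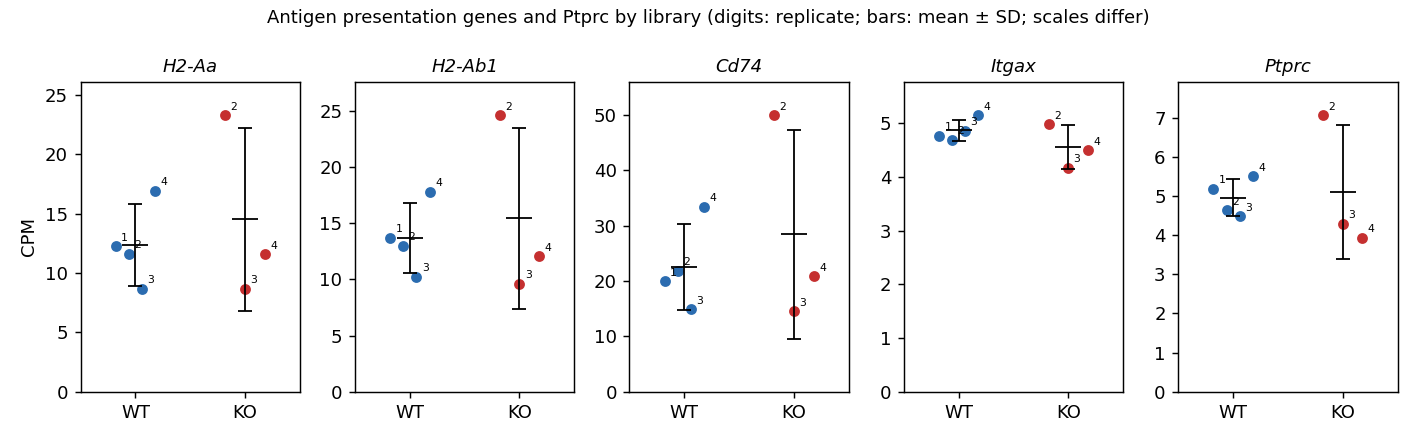
CPM of *H2-Aa*, *H2-Ab1*, *Cd74*, *Itgax* and *Ptprc* in each WT library (blue) and KO library (red), marked by replicate number, with the mean and ± 1 SD in black and a vertical scale of its own for each gene, starting at 0. KO library 2 tops the 3 class II genes and *Ptprc*, WT library 4 is next, and *Itgax* stays between 4.17 and 5.14 CPM.

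Genes of dendritic cells shared this order in part. *Itgax*, which encodes the integrin CD11c, ranged from 4.69 to 5.14 CPM in WT and from 4.17 to 4.99 CPM in KO (log2 fold change −0.10 ± 0.11), with WT library 4 the highest, KO library 2 next and KO library 3 the lowest. *Flt3*, the receptor for the growth factor of dendritic cell precursors, had 0.231, 0.298, 0.177 and 0.820 CPM in WT and 0.434, 0.208 and 0.259 CPM in KO, with WT library 4 far above the rest, KO library 2 next and the library numbered 3 the lowest in each genotype. Its log2 fold change was −0.36 ± 0.55, and 0.38 without WT library 4. *Xcr1*, the chemokine receptor of cross-presenting dendritic cells, had 0.903, 0.755, 0.550 and 0.675 CPM in WT and 0.921, 0.813 and 0.552 CPM in KO, overlapping throughout. Of the 6 antigen-presenting genes 4 were higher and 2 lower in KO, with a median log2 fold change of 0.13, which became −0.31 without KO library 2.

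Neutrophil genes were scarce at this time. *S100a8* and *S100a9* encode the calprotectin subunits that fill the neutrophil cytosol. *S100a8* had 0.461, 0.537, 0.302 and 0.338 CPM in WT and 0.434, 0.396 and 0.259 CPM in KO. *S100a9* had 0.903, 0.755, 0.780 and 0.740 CPM in WT and 0.782, 0.834 and 0.414 CPM in KO. Values overlapped for both, with KO library 4 the lowest, and the log2 fold changes were −0.17 ± 0.30 and −0.24 ± 0.25 (edgeR adjusted p = 0.911 and 0.833). *Ly6g*, the surface antigen that defines mouse neutrophils, was represented by 1 read in WT library 1, 1 read in WT library 3 and none elsewhere. *Csf3r*, the receptor for granulocyte colony-stimulating factor, had a log2 fold change of 0.11 ± 0.20, and 26.9% of its stretches of 31 bases occurred in other genes. Of the 3 tested genes 1 was higher and 2 lower, with a median of −0.17.

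The 3 mast cell genes were a carboxypeptidase and a pair of chymases stored in mast cell granules. *Cma1* had 0.846, 0.616, 0.958 and 0.707 CPM in WT and 0.608, 0.542 and 0.569 CPM in KO. The KO values lay under all WT values, though the nearest pair was 0.608 and 0.616 CPM, with a log2 fold change of −0.45 ± 0.21 (edgeR adjusted p = 0.569). *Mcpt4* had 0.423, 0.258, 0.479 and 0.145 CPM in WT and 0.243, 0.146 and 0.345 CPM in KO (−0.38 ± 0.45). *Cpa3* had 1.11, 0.755, 0.585 and 0.675 CPM in WT and 0.869, 0.959 and 0.690 CPM in KO (0.10 ± 0.25). The values of *Mcpt4* and *Cpa3* overlapped between the groups, and the median log2 fold change of the 3 genes was −0.38. Of 4 further genes of the mast cell list that could be tested, 3 were lower in KO and *Hdc* was at 0.03, none past the thresholds in edgeR or DESeq2. The 3 were the tryptase genes *Tpsab1* (−0.40) and *Tpsb2* (−0.21) and the transcription factor gene *Gata2* (−0.23). *Gata2* ran from 10.3 to 13.95 CPM, far above *Cpa3*, and whether its RNA came from mast cells was not tested.

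T cell genes were few in reads. *Cd3e*, a chain of the T cell receptor complex, had 0.269, 0.596, 0.248 and 0.547 CPM in WT and 0.869, 0.563 and 0.293 CPM in KO. *Cd3g*, a further chain of that complex, had 0.211, 0.199, 0.0532 and 0.0804 CPM in WT and 0.278, 0.0834 and 0.121 CPM in KO. KO library 2 was the highest for both and the groups overlapped, at log2 fold changes of 0.47 ± 0.43 and 0.30 ± 0.57 (edgeR adjusted p = 0.802 and 0.919). Without KO library 2 they were 0.02 and −0.36. The co-receptor gene *Cd4* was even between genotypes (0.04 ± 0.19), at 0.834 to 1.31 CPM, and *Cd8a* lay between 0.104 and 0.211 CPM. All 3 tested T cell genes were higher in KO, with a median of 0.30.

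Both B cell genes encode surface proteins, and they differed in direction. *Ms4a1*, which encodes CD20, had 1.15, 1.13, 1.26 and 1.08 CPM in WT and 1.67, 1.71 and 1.24 CPM in KO. KO library 4 lay within the WT range and the other KO libraries above it, with a log2 fold change of 0.41 ± 0.17 (edgeR adjusted p = 0.508). Of the *Ms4a1* reads, 39.5% were assigned to transcripts annotated as retaining an intron, with 29.7% to 59.8% in single libraries. *Cd79a*, a chain of the B cell receptor, had 0.519, 0.755, 0.585 and 0.514 CPM in WT and 0.330, 0.542 and 0.587 CPM in KO, with KO library 2 the lowest (−0.29 ± 0.26, adjusted p = 0.799).

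The NK cell members were scarce, and *Nkg7* was near the limit of detection. *Klrb1c*, the gene of the NK1.1 antigen, had 0.250, 0.556, 0.319 and 0.241 CPM in WT and 0.851, 0.271 and 0.759 CPM in KO. KO libraries 2 and 4 lay above all WT libraries and KO library 3 within them, with the largest positive log2 fold change of all members, 0.90 ± 0.43 (edgeR adjusted p = 0.573). Of its stretches of 31 bases, 20.3% were shared with other genes, among them *Klrb1b*. *Nkg7*, a protein of cytotoxic granules, had 0.135, 0.0795, 0.106 and 0.145 CPM in WT and 0.261, 0.146 and 0.0518 CPM in KO, and was not tested. The summed level of the pair was 0.433 to 0.519 TPM in WT and 0.617 to 1.13 TPM in KO. The ratio of 1.63 became 1.29 without KO library 2. Summed in CPM, the groups overlapped, at 0.384 to 0.636 in WT and 1.11, 0.417 and 0.811 in KO libraries 2 to 4.

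Further genes of the same lineages, 104 in all, were examined beside the members, of which 74 passed the filter, 35 with higher and 39 with lower values in KO and a median log2 fold change of −0.01. In edgeR none passed the thresholds, and 11 of the 74 had an unadjusted p under 0.05 (6 higher, 5 lower), a larger share than the 8.94% over all genes. In DESeq2 1 did, *Cd28*, a costimulatory receptor of T cells, which had 0.692, 0.795, 0.798 and 1.06 CPM in WT and 1.44, 1.46 and 1.85 CPM in KO (log2 fold change 0.91, adjusted p = 0.0197 in DESeq2 and 0.22 in edgeR). The groups did not overlap for *Cd28*, while the T cell receptor chain gene *Trac* was even, at 1.69 to 2.02 CPM in WT and 1.75 to 1.91 CPM in KO. *Lyve1*, a hyaluronan receptor of lymphatic endothelium and of some resident macrophages, had the lowest p of 17 tested macrophage genes (log2 fold change −0.32, adjusted p = 0.53 in edgeR), with 7 of the 17 higher in KO. *H2-Eb1*, a class II β chain, followed its class II relatives, with 18.6 CPM in KO library 2 and 11.6 CPM in WT library 4 against 5.36 to 8.72 CPM elsewhere. Of the *H2-Eb1* reads, however, only 23.4% were assigned to transcripts annotated as protein-coding. Among the neutrophil genes, the lactoferrin gene *Ltf* was lower (−0.86, edgeR adjusted p = 0.298) and the cathelicidin gene *Camp* higher (1.06, adjusted p = 0.534), the latter with 2.50 CPM in KO library 2. Among adhesion genes through which leukocytes leave the blood, *Vcam1* was lower (−0.34, edgeR adjusted p = 0.386) and *Sele* higher (0.70, adjusted p = 0.489). *Sele* had 33.9, 22.15 and 12.42 CPM in KO libraries 2 to 4, against 12.52 to 15.9 CPM in WT. None of these passed adjustment in edgeR.

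Markers of other cell types also moved with genotype or with single libraries. Of 8 smooth muscle and pericyte genes 7 were lower in KO, with a summed level of 1554 to 1829 TPM in WT and 1153 to 1501 TPM in KO, lowest in KO library 2, and *Cnn1* (−0.70) and *Des* (−0.78) passed the thresholds in DESeq2 but not in edgeR. Of 8 endothelial genes 7 were lower, and all 6 genes listed for theca and 5 of 6 fibroblast genes were lower in KO. The theca list did not vary as 1 cell type. WT library 4 was the highest of all for *Star* (1916 CPM), *Cyp11a1* (7278 CPM) and *Hsd3b1* (3375 CPM), but the lowest for *Insl3* (20.5 CPM). Of 6 surface epithelium genes 5 were lower, with a median log2 fold change of −0.45, and *Upk3b* (−1.07) passed in DESeq2 (adjusted p = 0.0155) but not in edgeR. All 6 oocyte genes were higher in KO, with a median of 0.28, and 5 of 8 granulosa cell genes were lower, with a median of −0.06. The 6 red blood cell genes, which record blood in the tissue, were all higher in KO on average and had a summed level of 1148 to 1472 TPM in WT and of 1224, 2186 and 1302 TPM in KO. That summed level was highest in KO library 3, though the red blood cell gene *Slc4a1* was highest in KO library 4. The part of these cell types in the results above was not tested.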

How the data were processed

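Ovarian tissue depleted of granulosa cells was profiled by RNA-seq in 7 libraries, 4 WT and 3 KO, grouped by the sample labels. Stranded, paired-end 100 bp mRNA libraries had been quantified by the authors with Salmon (named in the submitters' processing notes, version not given in the sources used here) against mouse transcripts of GENCODE M26 (GRCm39). The deposited files hold, per transcript, Salmon's expected counts and TPM, which the authors' run made relative to transcript length and to the sum of each library, and the effective lengths that the authors deposited beside them.

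Transcripts were matched by Ensembl identifier to GENCODE release M39 (GRCm39). In all, 137570 of 139225 transcripts (98.8%) and 99.37% to 99.4% of reads were matched. Expected counts were summed per gene and rounded. TPM were summed per gene and used only for levels. KO was compared with WT by edgeR 4.0.16 in R 4.3.3 (TMM, filterByExpr, quasi-likelihood F test, two-sided), and p values of 19233 genes were adjusted after Benjamini and Hochberg. DEGs had an adjusted p not above 0.05 and a log2 fold change of 0.5 or more in either direction. DESeq2 1.42.0, used in the study, and limma-voom (limma 3.58.1) were alternatives, beside other size factors, filters, length offsets, a replicate block and leaving out each library in turn. Standard errors were derived from the fold change and the F statistic. CPM used TMM factors. Library totals were 47.4 M to 63.4 M reads that Salmon assigned to transcripts, and the common biological coefficient of variation was 0.127. The pipeline was tested on simulated data. The labels describe the libraries as biological replicates of pooled mice.

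The 48 members, the further gene lists and the tests were chosen with earlier results of these data known. Values in each library are given for *Ptprc*, the defining genes of each subset, members called by edgeR or DESeq2, members with an unadjusted p under 0.05 or without overlap, and the member of widest range in each subset. *Cd14*, *H2-Aa* and the further genes named with single values beside these were chosen after their values were seen. Sequences were read from GRCm39, 250 bases before the start of the most-read transcript of each gene. Shared sequence was the share of a gene's 31-base stretches found in transcripts of other genes. The replicate numbers 2 to 4 are common to both genotypes, but they mark separate pools of mice, no source names a pairing, and the deviations of libraries with 1 number correlated at −0.00104, 0.119 and 0.0977, so the libraries were not treated as pairs.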

Additional observations from a re-analysis of the deposited data

How the results depend on the processing

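Over all genes, the number of DEGs was 2 in edgeR, 144 in DESeq2, 36 without the filter on low counts, 6 with at least 10 counts in every library, and 1 to 4 with 1 library left out (1 without WT library 3 or KO library 2, 4 without WT library 4). Among the members it was 0, and 1 (*Ear6*, with an adjusted p of 0.0158 without the filter) in DESeq2, without the filter and in DESeq2 with a replicate block. Members with an unadjusted p under 0.05 numbered 3, 5 without the filter, and 2 to 4 with 1 library left out. *Ear6* kept its direction in every alternative, and its adjusted p was 0.0956 to 0.141 in the other fits of all 6 or 7 libraries. *Pgr* passed the threshold at −1.72 in DESeq2, −1.71 without the filter and with at least 10 counts, and −1.74 in DESeq2 with the block. Its range with 1 library left out was −1.82 to −1.51. In those fits its edgeR adjusted p ran from 0.0238 to 0.258, so it passed in part of them.

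The fit with a replicate block, on libraries numbered 2 to 4, gave 23 DEGs in edgeR and 215 in DESeq2. WT library 2 and KO library 2 each correlated best with a library of another number. Under the block *Cd68* turned to 0.0156 in edgeR and 0.00896 in DESeq2, and the mast cell median was −0.16 and −0.17. That median was also −0.17 with at least 10 counts, where fewer members are tested, and −0.48 to −0.13 with 1 library left out (−0.13 without WT library 3 or KO library 3). Without the filter the eosinophil median, then over more than *Ear6*, was −0.33. *Ptprc* turned to −0.000472 in limma-voom.

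Leaving out 1 library in turn, members higher in KO numbered 9 to 32 (chosen after seeing the data), fewest without KO library 2 and most without KO library 4. Ranges of log2 fold change were −0.27 to 0.20 for *Ptprc*, −0.31 to 0.36 for the antigen-presenting median, −0.35 to 0.65 for *Cd74*, −0.34 to 0.43 for *H2-Ab1*, −0.0867 to 0.15 for *C1qa*, −0.0611 to 0.10 for *Csf1r*, −0.36 to 0.58 for *Cd3g*, −0.10 to 0.53 for *Marco* and −0.0845 to 0.27 for *Xcr1*, each lowest without KO library 2. *Flt3* ran from −0.72 to 0.38, highest without WT library 4. *S100a8* (−0.32 to 0.0356), *S100a9* (−0.40 to 0.0268) and *Cd68* (−0.10 to 0.076) were highest without KO library 4, and *Cpa3* (−0.0153 to 0.33) was lowest without WT library 3. The medians of macrophage (−0.06 to 0.11), neutrophil (−0.32 to 0.04), T cell (−0.10 to 0.49) and B cell genes (−0.01 to 0.14) crossed 0 as well. Ratios of summed TPM were 1.29 to 1.82 for NK cells (lowest without KO library 2) and 0.839 to 1.47 for antigen-presenting genes. By the rule set for each, the alternatives left 247 values of counts, medians, ratios and *Pgr* the same, while 22 moved and 6 became stronger. For medians and ratios the limit was the spread between libraries. Among single genes, 296 values were the same, 23 reversed in sign and 3 became stronger. A single gene counted as the same if its sign and its call by the thresholds held. As few members were called in any fit, this says little about the size of their change. The cause of these shifts was not tested. Members under about 1 CPM, which include most lymphocyte, NK cell and mast cell genes, rest on few reads a library and have wider standard errors, and the size of difference that 4 and 3 pools can show in them was not measured.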

Other observations

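Some lymphoid genes outside the members followed particular WT pools. *Trdc*, the constant region of the T cell receptor δ chain, had 3.71, 10.5, 5.14 and 12.1 CPM in WT libraries 1 to 4 and 5.61, 4.04 and 5.33 CPM in KO libraries 2 to 4. *Il2rb*, a chain of the receptors for IL-2 and IL-15, had 5.51, 10.3, 6.72 and 11.2 CPM in WT and 6.36, 4.27 and 6.35 CPM in KO. Both were highest in WT libraries 2 and 4, whereas KO library 2 was the highest for *Cd3e* and *Ptprc*. *Krt7*, a keratin gene of surface epithelium, was high in the same WT libraries, with 2.08, 4.11, 1.45 and 3.86 CPM in WT and 2.95, 1.23 and 1.47 CPM in KO. None of these 3 genes had an unadjusted p under 0.05 in edgeR. These genes were chosen after their values were seen.

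*Gzmb*, which encodes granzyme B, a protease of cytotoxic granules, was at 6.05 to 11.04 CPM in WT and at 8.03, 12.0 and 14.99 CPM in KO (log2 fold change 0.36, edgeR adjusted p = 0.721), whereas *Prf1*, which encodes the perforin stored in the same granules, lay between 0.0173 and 0.226 CPM and *Nkg7* between 0.0518 and 0.261 CPM. KO library 2 was the highest for *Prf1* and for *Nkg7* but the lowest of the KO libraries for *Gzmb*. *Gzma*, a further granzyme gene, had 0.192, 0.119, 0.106 and 0.177 CPM in WT and 0.643, 0.292 and 0.121 CPM in KO. Its log2 fold change was 1.23 (edgeR adjusted p = 0.544). Among the further NK cell genes only *Gzma* had an unadjusted p under 0.05 in edgeR. *Gzma* and the scarce *Ncr1*, *Klrd1* and *Klre1* were also highest in KO library 2. *Eomes* was highest in WT library 2 and *Il2rb* in WT library 4. *Thy1*, a T cell antigen that fibroblasts also carry, stood at 95.2 to 111 CPM in WT and 114 to 142 CPM in KO (0.39, edgeR adjusted p = 0.251), while *Cd3e* stayed below 1 CPM. *Hdc*, the histidine decarboxylase of mast cells and other cells, stood at 106 to 161 CPM, and *Fcer1a*, the high-affinity IgE receptor chain of mast cells, at 0 to 0.0192 CPM.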
